A study of Mus musculus with 22 samples.

Results

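The genes described here encode the subunits of the receptors for glutamate and GABA, the main excitatory and the main inhibitory transmitter of the brain. They were chosen by gene symbol alone, as every AMPA, kainate, delta, NMDA and metabotropic glutamate receptor gene and every GABA-A and GABA-B receptor gene with a symbol of the standard families. The rule found 47 genes among the 41456 gene IDs of the deposited table. By family they are 4 AMPA, 5 kainate, 2 delta, 7 NMDA and 8 metabotropic glutamate receptor genes, 6 alpha, 3 beta and 3 gamma GABA-A genes, 7 other GABA-A genes (Gabrd, Gabre, Gabrp, Gabrq and Gabrr1 to Gabrr3) and 2 GABA-B genes. A filter on low counts was passed by 43 of the 47. Gabra6, Gabrp, Gabrr3 and Grm6 did not pass it.

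AMPA, kainate and NMDA receptors are ion channels that open when glutamate binds and depolarize the cell, and each channel is built from several subunits whose mix sets its speed, its calcium flow and its drug binding. GABA-A receptors are chloride channels of 5 subunits, commonly alpha, beta and gamma together, and are the site where benzodiazepines, barbiturates and many anaesthetics act. Metabotropic glutamate receptors and GABA-B receptors signal through G proteins and act more slowly. In the hypothalamus both transmitters drive the neurons that set sleep, wakefulness, feeding and body temperature.

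RNA was measured by sequencing polyadenylated RNA from the hypothalamus of C57BL/6J mice, and the title of the series speaks of the lateral hypothalamus. Mutant mice (PWScrm+/p-) lack the Snord116 cluster of small nucleolar RNA genes on the paternal chromosome, a model of the Prader-Willi syndrome critical region, and control mice (PWScrm+/p+) carry no deletion. The deletion is constitutive, so it is present in every cell of the mutant mice and not in the hypothalamus alone. Mice were sampled at lights on (ZT0), at ZT6 after 6 h of undisturbed light, or at ZT6 once they had been kept awake for 6 h (sleep deprivation, SD). Of 22 libraries, 17 were used: 3 control ZT0, 4 control ZT6, 4 control SD, 2 mutant ZT6 (replicates 1 and 4) and 4 mutant SD. No mutant ZT0 library was among them, so genotypes were compared at ZT6 and after SD. Age and sex are not given in the sources used here. The series text gives 3 to 5 mice per condition, and libraries of a group were taken as separate mice.

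The 17 libraries held 14609454 to 46965594 counts in all, so that a gene at 0 can hide up to 3 counts, or 0.0639 to 0.205 CPM, where CPM is the count that a library of 1000000 counts would hold. Such limits cover counting error only. Snord116 genes (17 gene IDs) had at least 1 count in 8 of 11 control libraries, with 0 to 1561 counts, and in 0 of 6 mutant libraries. A list of 10 neuron genes summed to 3782 to 5867 CPM and a list of 11 hypothalamic genes that includes Nkx2-1, Hcrt and Pmch to 973.7 to 5557 CPM. The highest of these sums held 4590 CPM of Pomc, also a gene of the anterior pituitary, and without Pomc the list summed to 904 to 1948 CPM. A list of 9 pituitary genes summed to 706 CPM in control ZT6 replicate 1, 23340 CPM in mutant SD replicate 1 and 1109 CPM in mutant SD replicate 4, and to at most 33.2 CPM in the other 14. In bulk tissue, fewer cells of a type and less RNA per cell cannot be told apart. The 4 deep libraries that were left out held 50.6 to 176.5 CPM of the neuron list and 3.17 to 5.81 CPM of the hypothalamic list, and the fifth held 7348 counts in all.

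Levels between genes were compared as CPM per kilobase of annotated exon, as means ± SD over the 17 libraries. The GABA-B gene Gabbr1, at 93.1 ± 12.4, and the AMPA gene Gria1, at 83.9 ± 16.7, were the highest of the 47, and their ranges (74.7 to 124 and 64.8 to 119.7) overlapped. The GABA-A genes Gabra3, at 37.1 ± 6.69, and Gabrq, at 23.8 ± 4.01, the NMDA gene Grin1, at 28.7 ± 6.74, and the AMPA gene Gria2, at 22.2 ± 5.94, also stood high. Each of the 10 families had 1 leading gene by this measure. It was the same gene in 10 of 10 families when length was taken as the mean transcript length. The order below the leading gene depended on the length in some families. By mean transcript length the kainate gene Grik2 stood at 7.97, above Grik4 (7.24) and Grik1 (4.32). The GABA-A gene Gabra4 (15.2) then stood above Gabra5 (7.57).

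**Figure D1:**
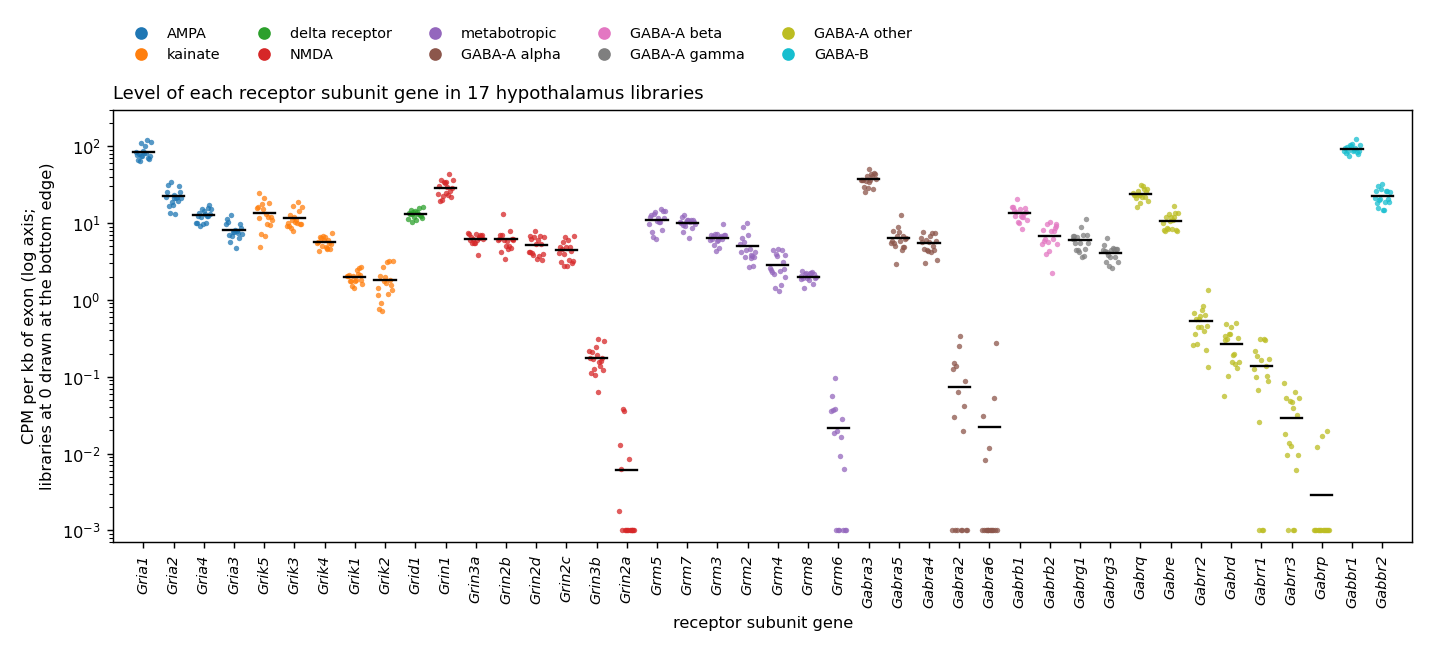
Level of 42 of the receptor subunit genes in CPM per kilobase of exon on a log axis. Points are the 17 libraries, bars their mean, colours the families, and libraries at 0 are drawn at the lower edge. Gabbr1 and Gria1 lead, and Grin2a and Gabra2 lie near the foot of their families.

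Among AMPA receptor genes, whose products carry most fast excitatory transmission, Gria1 made up 65.9% of the family's summed level (54.5% to 78.2% over libraries). Gria2, whose edited subunit makes the channel nearly impermeable to calcium, reached 22.2 ± 5.94 CPM per kilobase, a share of 17.6%. Gria4 stood at 12.7 ± 2.35 (9.98%) and Gria3 at 8.17 ± 2.05 (6.52%). By exon length Gria1 exceeded Gria2 in every one of the 17 libraries, since the lowest Gria1 level (64.8) was above the highest Gria2 level (34.6). That gap rests on the annotated exon lengths, 6043 bases for Gria1 and 15548 for Gria2. By mean transcript length the means were 148.1 and 83.2 CPM per kilobase. In CPM without length Gria2 was the higher in some libraries, such as control ZT6 replicate 3 (538.6 against 453.4).

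Kainate receptor genes encode channels that act on both sides of the synapse. Grik5, which encodes the high-affinity subunit GluK5, led at 13.3 ± 5.29 CPM per kilobase (4.92 to 24.9), and Grik3 followed at 11.6 ± 3.09, within that spread. Grik4 stood at 5.64 ± 0.896, Grik1 at 1.98 ± 0.355 and Grik2 at 1.80 ± 0.823. Among members above 1 CPM per kilobase, Grik2 and Grik5 were among those that varied most between libraries, with coefficients of variation of 45.8% and 39.7%, against 13.3% for Gabbr1. Of the delta receptor genes, which encode synapse-organizing relatives of the glutamate channels, Grid1 stood at 13.1 ± 1.66, with a range of 10.4 to 16.4.

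NMDA receptors need the obligate GluN1 subunit, encoded by Grin1, together with GluN2 or GluN3 subunits. Grin1 stood at 28.7 ± 6.74 CPM per kilobase and held 55.9% of the family's level. By exon length Grin3a (6.29 ± 0.892), Grin2b (6.15 ± 2.09), Grin2d (5.20 ± 1.46) and Grin2c (4.40 ± 1.31) lay close together. This closeness depends on the length used, as Grin2b has 24842 bases of annotated exon. By mean transcript length Grin2b stood at 29.5, Grin3a at 13.6, Grin2d at 8.88 and Grin2c at 4.83. Grin3b was low at 0.174 ± 0.0647. Grin2a, the gene of the GluN2A subunit, was listed near 0: the control ZT0 libraries held 1, 6 and 4 counts, the control ZT6 libraries 0, 13, 11 and 0, the control SD libraries 0, 0, 0 and 3, and all 6 mutant libraries 0.

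Gabra2, of the GABA-A alpha family, was listed at 0 in 7 of the 17 libraries and reached at most 66 counts. Whether a 0 in this table is absent RNA or a failed estimate was not tested. Ube3a, a widely used ubiquitin ligase gene, was listed at 0 in 11 of the 17 libraries and reached 46.01 CPM in another, while 8 other widely used genes such as Actb and Gapdh were never at 0. The low values of Grin2a and Gabra2 are therefore given as listed, and no fold change is given for either gene.

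Grin1 held the 1 promoter among the members with a palindromic E-box, the letters CACGTG that clock transcription factors can bind, and its window is shown for that reason. Windows of 250 bases before the transcription start, on mouse GRCm38.p6 from RefSeq, were matched for 32 of the 47 genes (39 windows). CACGTG stood in 1 of the 39 member windows and in 6.02% of 32851 windows of all genes. The Grin1 window lies at chr2:25319188-25319437 on the minus strand, just before Grin1 (chr2:25291181-25319187), with 58.8% G and C and no annotated exon in it. Capitals mark its 2 E-boxes.
Grin1: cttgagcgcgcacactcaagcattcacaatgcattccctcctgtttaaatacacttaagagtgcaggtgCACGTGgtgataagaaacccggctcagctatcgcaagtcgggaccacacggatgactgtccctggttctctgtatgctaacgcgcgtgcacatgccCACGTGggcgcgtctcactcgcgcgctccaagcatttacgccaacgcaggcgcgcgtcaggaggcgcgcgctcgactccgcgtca

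The cAMP response element TGACGTCA, the palindrome bound by CREB, was in 0 of the 39 member windows and in 1.55% of all windows. The EGR site GCGTGGGCG, searched on both strands, was in 0 of 39 and in 0.536% of all. The GC box GGGCGG, which reads CCGCCC on the other strand, a site of Sp1-type factors, was in 18 of 39 (46.2%), from 17 genes, and in 32.7% of all windows. A match is a run of letters in this window and was not measured as a bound site.

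Metabotropic glutamate receptor genes fall into 3 groups by sequence and coupling. The group I gene Grm5 (11.1 ± 2.78 CPM per kilobase), which couples to calcium release, led the family, and the group III gene Grm7 (10.1 ± 1.52), a presynaptic brake on release, lay within its spread. The group II genes Grm3, found in neurons and astrocytes, and Grm2 stood at 6.46 ± 1.22 and 4.98 ± 2.06, and the group III genes Grm4 and Grm8 at 2.87 ± 1.11 and 2.02 ± 0.257. Grm6, the receptor of retinal ON bipolar cells, stood at 0.0214 ± 0.0261 and did not pass the low-count filter.

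GABA-A alpha subunits set much of the drug binding and the location of the channel. Gabra3 held 68.8% of the family's level (62.5% to 75.3%), ahead of Gabra5 (6.36 ± 2.15 CPM per kilobase) and Gabra4 (5.44 ± 1.40), which lay within each other's spread. Gabra6, a subunit of cerebellar granule cells, stood at 0.0223 ± 0.0669, with counts in 5 of 17 libraries. Of the beta genes, part of the GABA binding site, Gabrb1 stood at 13.4 ± 2.91 and Gabrb2 at 6.86 ± 2.29. Of the gamma genes, whose products anchor the channel at synapses and complete the benzodiazepine site, Gabrg1 stood at 6.01 ± 1.98 and Gabrg3 at 4.11 ± 0.939.

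Among the remaining GABA-A genes the theta subunit gene Gabrq (23.8 ± 4.01 CPM per kilobase) and the epsilon subunit gene Gabre (10.7 ± 2.59) held 67.0% and 30.2% of the level. The delta subunit gene Gabrd, typical of extrasynaptic receptors in the forebrain and cerebellum, stood at 0.267 ± 0.136, the rho genes at 0.0287 to 0.528, and Gabrp at 0.00289 ± 0.00659. The GABA-B receptor is a pair of subunits, Gabbr1 for GABA binding and Gabbr2 for G protein coupling, and Gabbr2 stood at 22.2 ± 5.38, a share of 19.1% of the family.

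The GABA-A genes lie in clusters (GENCODE M21, GRCm38), and levels within a cluster differed widely. On the X chromosome Gabre, Gabra3 and Gabrq span 0.587 Mb (chrX:72255999-72842602) and each stood at 10.7 CPM per kilobase or more. On chromosome 5 Gabrg1, Gabra2, Gabra4 and Gabrb1 span 1.40 Mb (chr5:70751047-72149037), with levels of 6.01, 0.0734, 5.44 and 13.4. Gabrg3 (chr7:56716465-57387188) and Gabra5 lie on chromosome 7, with levels of 4.11 and 6.36. Several members overlap genes on the opposite strand. The strand setting of the counting is not given in the sources used here, so reads from any shared exon sequence cannot be told apart.

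The first comparison asked whether 6 h of sleep deprivation changed receptor subunit RNA in control mice. No receptor subunit gene passed the test. edgeR's quasi-likelihood test, two-sided and with Benjamini-Hochberg adjustment over all 21346 genes tested, called 0 of 43 members (0% of all genes were called), and DESeq2 called 0 of the 42 members to which it gave an adjusted p (0.0924% of all genes). At an unadjusted p under 0.05 stood 2 members, 4.65%, against 6.17% of all genes. Log2 changes were above 0 in 23 members and below 0 in 20, with a median of 0.05 against -0.02 over all genes. The 95% interval lay within a 2-fold change for 34 of the 43.

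The member with the smallest p was Gabra5 (ENSMUSG00000055078, chr7:57407672-57510059, minus strand), which encodes the alpha5 subunit of extrasynaptic GABA-A receptors. Its promoter window, chr7:57510060-57510309 on the minus strand of GRCm38.p6 (RefSeq), has 56.4% G and C and held none of the 4 motifs. It is shown because the gene led this comparison and one of the genotype comparisons, and it is printed without capitals because no motif was found.
Gabra5: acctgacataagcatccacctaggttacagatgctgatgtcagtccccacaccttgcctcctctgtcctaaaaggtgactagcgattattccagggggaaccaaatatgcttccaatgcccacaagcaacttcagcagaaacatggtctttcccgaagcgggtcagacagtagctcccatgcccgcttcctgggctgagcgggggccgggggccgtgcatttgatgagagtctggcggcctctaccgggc

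In TMM-scaled CPM, Gabra5 was at 16.5, 15.03, 8.61 and 20.5 in the control ZT6 libraries and at 26.6, 22.6, 17.6 and 37.6 in the control SD libraries. The SD libraries were mostly the higher ones, but the lowest of them (17.6) lay under the highest ZT6 library (20.5), so the groups overlapped. The means were 15.2 ± 4.93 and 26.1 ± 8.51 (SD, n = 4 each), a log2 change of 0.78 ± 0.27 (SE) with a 95% interval of 0.21 to 1.35 and an adjusted p of 0.699 from edgeR. Over 8 fits that each left out 1 of these libraries it ran from 0.56, without control SD replicate 4, to 0.96. Within the 3 runs of index numbers described further on, the differences were 0.56, 0.61 and 0.86.

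Grin2b (ENSMUSG00000030209, chr6:135713233-136173511), which encodes the GluN2B subunit, was second. It was at 105.0, 173.8, 322 and 149.9 CPM in the control ZT6 libraries and at 85.5, 123.4, 143.8 and 113.9 in the control SD libraries. The groups overlapped, and control ZT6 replicate 3, at 322, stood far above the other libraries. The log2 change was -0.69 ± 0.27 (95% interval -1.27 to -0.10) with an adjusted p of 0.732 from edgeR, and without that library it was -0.27 ± 0.22.

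In mutant mice the same comparison rested on 2 ZT6 libraries against 4. edgeR called 0 of 43 members (0% of all genes), 0 members had an unadjusted p under 0.05 (2.16% of all genes did), and DESeq2 called 0 of 42 (0.0821% of all genes). Log2 changes were above 0 in 18 members and below 0 in 24, with Grin2a at 0 counts in both groups and a median of -0.05 against -0.01 over all genes.

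Among the smallest p-values were those of Gabre, an epsilon subunit gene, and Gabbr1. Gabre was at 57.6 and 78.8 CPM in the mutant ZT6 libraries and at 63.5, 38.9, 37.7 and 64.5 in the mutant SD libraries. The groups overlapped, and the log2 change was -0.41 ± 0.26 with an adjusted p of 1 from edgeR. Gabbr1 was at 737 and 963 CPM at ZT6 and at 660.3, 616, 673 and 813.5 after SD, again with overlap (-0.30 ± 0.19, adjusted p = 1 from edgeR).

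The mutant ZT6 and SD libraries did not overlap for 3 members, all lower after SD: Gabrq, Gabrr1 and Grm8. Among all genes 9.67% did not overlap in this comparison. Gabrq was at 161.4 and 149.0 CPM at ZT6 and at 117.6, 136.4, 148.4 and 103.9 after SD, so that the nearest libraries were less than 1 CPM apart. Grm8 was at 22.3 and 22.8 at ZT6 and at 15.8, 21.4, 18.8 and 19.7 after SD, and Gabrr1 rested on 5 to 24 counts a library. In control mice 0 members did not overlap, against 1.82% of all genes.

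Averaged over the genotypes, sleep deprivation gave 0 called members by edgeR, against 0.00468% of all genes, which is 1 gene, the cold-inducible RNA-binding protein gene Rbm3. 0 members had an unadjusted p under 0.05 (4.87% of all genes did), and DESeq2 called 0 of 42 members (0.19% of all genes). Among the smallest p-values were those of Grin2b, at a log2 change of -0.43 ± 0.21, and Gabra5, at 0.39 ± 0.21, each with an adjusted p of 1.00 from edgeR. The 95% interval lay within 2-fold for 36 of the 43, with a median SE of 0.21.

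**Figure D2:**
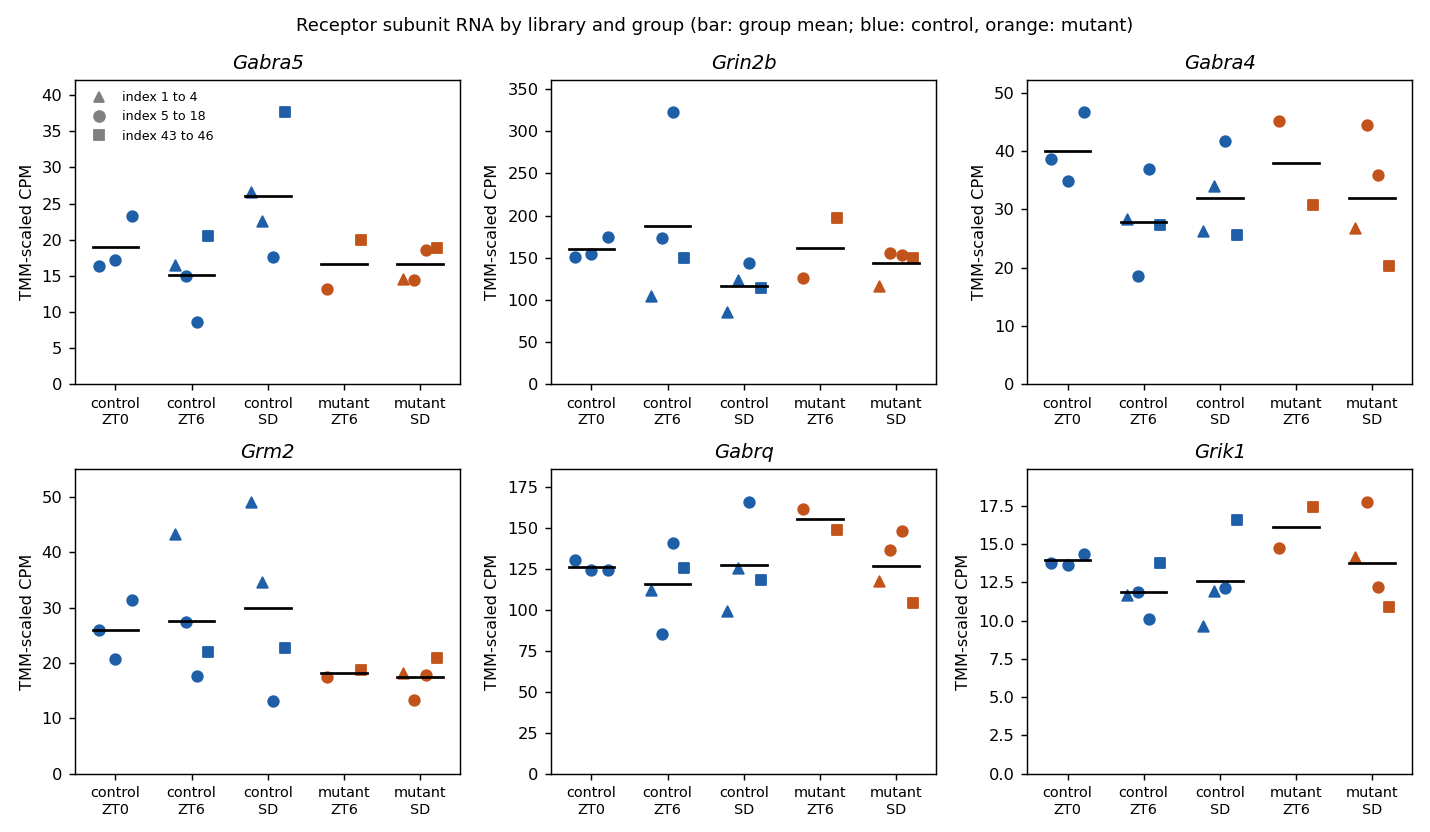
TMM-scaled CPM of Gabra5, Grin2b, Gabra4, Grm2, Gabrq and Grik1 in each library by group. Blue points are control and orange points mutant libraries, marker shapes the runs of index numbers, and bars the group means. Control SD libraries of Gabra5 reach 37.6, and 1 control ZT6 library of Grin2b stands at 322.

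The first 6 h of the light period could be followed in control mice alone, as ZT6 against ZT0. edgeR called 0 of 43 members (0% of all genes), 0 had an unadjusted p under 0.05 (3.25% of all genes did), and DESeq2 called 0 of 43 (0.109% of all genes). Gabra4, an alpha subunit of extrasynaptic receptors, was at 38.6, 34.8 and 46.6 CPM at ZT0 and at 28.4, 18.6, 36.9 and 27.3 at ZT6. Of the ZT6 libraries 3 lay under every ZT0 library, and the remaining one overlapped them. The log2 change was -0.53 ± 0.28, with an adjusted p of 0.960 from edgeR. Gria3 followed at -0.39 ± 0.25 and Grik3 at 0.38 ± 0.26, both with an adjusted p of 0.960 from edgeR.

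The ZT6 and ZT0 libraries overlapped for each of the 43 members, while 4.4% of all genes had no overlap. The 3 ZT0 libraries all carry index numbers 14 to 16, and the 4 ZT6 libraries come from 3 runs of index numbers. Within the 1 run that held both times 10 members were higher and 33 lower at ZT6, while 52.4% of all genes were higher and 47.2% lower there. Over all libraries 20 members were higher and 23 lower, with a median of -0.09 against 0.09 over all genes, of which 59.7% were higher.

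The genotype comparison at ZT6 set 2 mutant against 4 control libraries. edgeR called 0 of 43 members (0% of all genes), 0 had an unadjusted p under 0.05 (2.65% of all genes did), and DESeq2 called 0 of 43 (0.071% of all genes). Log2 changes were above 0 in 30 members and below 0 in 13, with a median of 0.12 against -0.06 over all genes, and 43.5% of all genes were above 0. Grin2a, with the smallest p, had 0, 13, 11 and 0 counts in the control and 0 and 0 in the mutant libraries.

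Gabrq (ENSMUSG00000031344, chrX:72825178-72842602), a subunit enriched in hypothalamic and brainstem monoaminergic nuclei, was at 112.3, 85.6, 140.8 and 125.7 CPM in the control ZT6 and at 161.4 and 149.0 in the mutant ZT6 libraries. Both mutant libraries lay above all 4 control libraries. The log2 change was 0.42 ± 0.22, with an adjusted p of 0.999 from edgeR. Grik1, which encodes the GluK1 kainate subunit, was at 11.7, 11.9, 10.1 and 13.8 CPM in control and at 14.7 and 17.4 in mutant libraries, a log2 change of 0.44 ± 0.23 with an adjusted p of 0.999 from edgeR. Together with Gabrr1 these were the 3 members whose libraries did not overlap, against 6.06% of all genes. After SD the genotypes overlapped for Gabrq, at 99.0 to 166 CPM in control and 103.9 to 148.4 in mutant libraries, and for Grik1, at 9.62 to 16.6 and 10.9 to 17.8.

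After sleep deprivation, with 4 libraries of each genotype, edgeR called 0 of 43 members (0% of all genes) and DESeq2 0 of 43 (0.00474% of all genes). At an unadjusted p under 0.05 stood 2 members, 4.65%, against 2.96% of all genes. The genotypes overlapped for each of the 43 members, while 3.02% of all genes had no overlap. Gabra5 was at 26.6, 22.6, 17.6 and 37.6 CPM in control SD and at 14.5, 14.5, 18.6 and 18.9 in mutant SD libraries. Control SD replicate 3 lay among the mutant libraries and the other 3 above them. The log2 change was -0.65 ± 0.27 (95% interval -1.22 to -0.08), with an adjusted p of 0.999 from edgeR. It was -0.40 without control SD replicate 4. This comparison uses the same control SD libraries as that of SD in control mice.

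Grm2 (ENSMUSG00000023192, chr9:106643095-106656082), an inhibitory group II autoreceptor at glutamate terminals, was the other. Its promoter window, chr9:106656110-106656359 on the minus strand of GRCm38.p6 (RefSeq), has 71.2% G and C, and capitals mark its 3 GC boxes, the motif most common among the members.
Grm2: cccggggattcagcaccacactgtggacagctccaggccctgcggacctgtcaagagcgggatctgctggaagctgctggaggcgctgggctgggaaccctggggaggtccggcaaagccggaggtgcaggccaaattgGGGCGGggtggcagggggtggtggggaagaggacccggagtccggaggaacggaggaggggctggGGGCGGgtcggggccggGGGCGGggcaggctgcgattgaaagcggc

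Grm2 was at 49.1, 34.6, 13.2 and 22.8 CPM in the control SD libraries and at 18.1, 13.4, 17.7 and 20.8 in the mutant SD libraries. The control libraries were spread over a wide range, and the lowest of all 8 was a control library. The means were 29.9 ± 15.5 and 17.5 ± 3.07 (SD, n = 4 each), a log2 change of -0.77 ± 0.34 (95% interval -1.49 to -0.05) with an adjusted p of 0.999 from edgeR. Without control SD replicate 1 it was -0.43 ± 0.32. The 2 highest control libraries carry index numbers 1 to 4, and within the 3 runs of index numbers the differences were -1.17, 0.22 and -0.13. Grm3 followed at 0.34 ± 0.20 (adjusted p = 0.999 from edgeR).

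Over ZT6 and SD together edgeR called 0 of 43 members (0% of all genes), DESeq2 0 of 43 (0.0237% of all genes), and 2 members, Grm2 and Grin2a, stood at an unadjusted p under 0.05 (3.6% of all genes did). Grm2 was at -0.69 ± 0.27 (adjusted p = 0.942 from edgeR) and at -0.52 without control SD replicate 1. Grik1 was at 0.28 ± 0.15 (adjusted p = 0.942 from edgeR). The 95% interval lay within 2-fold for 37 of the 43.

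Gabrg3 and Gabra5 lie on chromosome 7, the chromosome that carries the imprinted region with Snord116. Gabrg3 was at 37.3, 50.1, 75.9 and 45.9 CPM in control ZT6 and at 55.8 and 54.2 in mutant ZT6 libraries, and at 33.0, 42.8, 53.1 and 31.4 in control SD and 42.7, 54.5, 54.2 and 36.8 in mutant SD libraries. The genotypes overlapped in both states. Over both states the log2 change from control to mutant was 0.15 for Gabrg3, with a 95% interval of -0.22 to 0.52. For Gabra5 it was -0.26 (-0.71 to 0.19), so that both intervals lay within a 2-fold change.

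Whether the response to sleep deprivation differed between genotypes was tested as an interaction. edgeR called 0 of 43 members (0% of all genes), 0 had an unadjusted p under 0.05 (2.48% of all genes did), and DESeq2 called 0 of 43 (0.0379% of all genes). Gabra5, with a mean of 15.2 at ZT6 and 26.1 CPM after SD in control mice and of 16.6 in both states in mutant mice, had the smallest p, at a log2 difference of -0.79 ± 0.42 (95% interval -1.67 to 0.10, adjusted p = 1 from edgeR). Gabbr1 followed at -0.38 ± 0.25 and Gabrq at -0.43 ± 0.28. The median SE of the members was 0.41, and the interval lay within 2-fold for 16 of the 43, so that for the other 27 a 2-fold difference lay inside it.

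**Figure D3:**
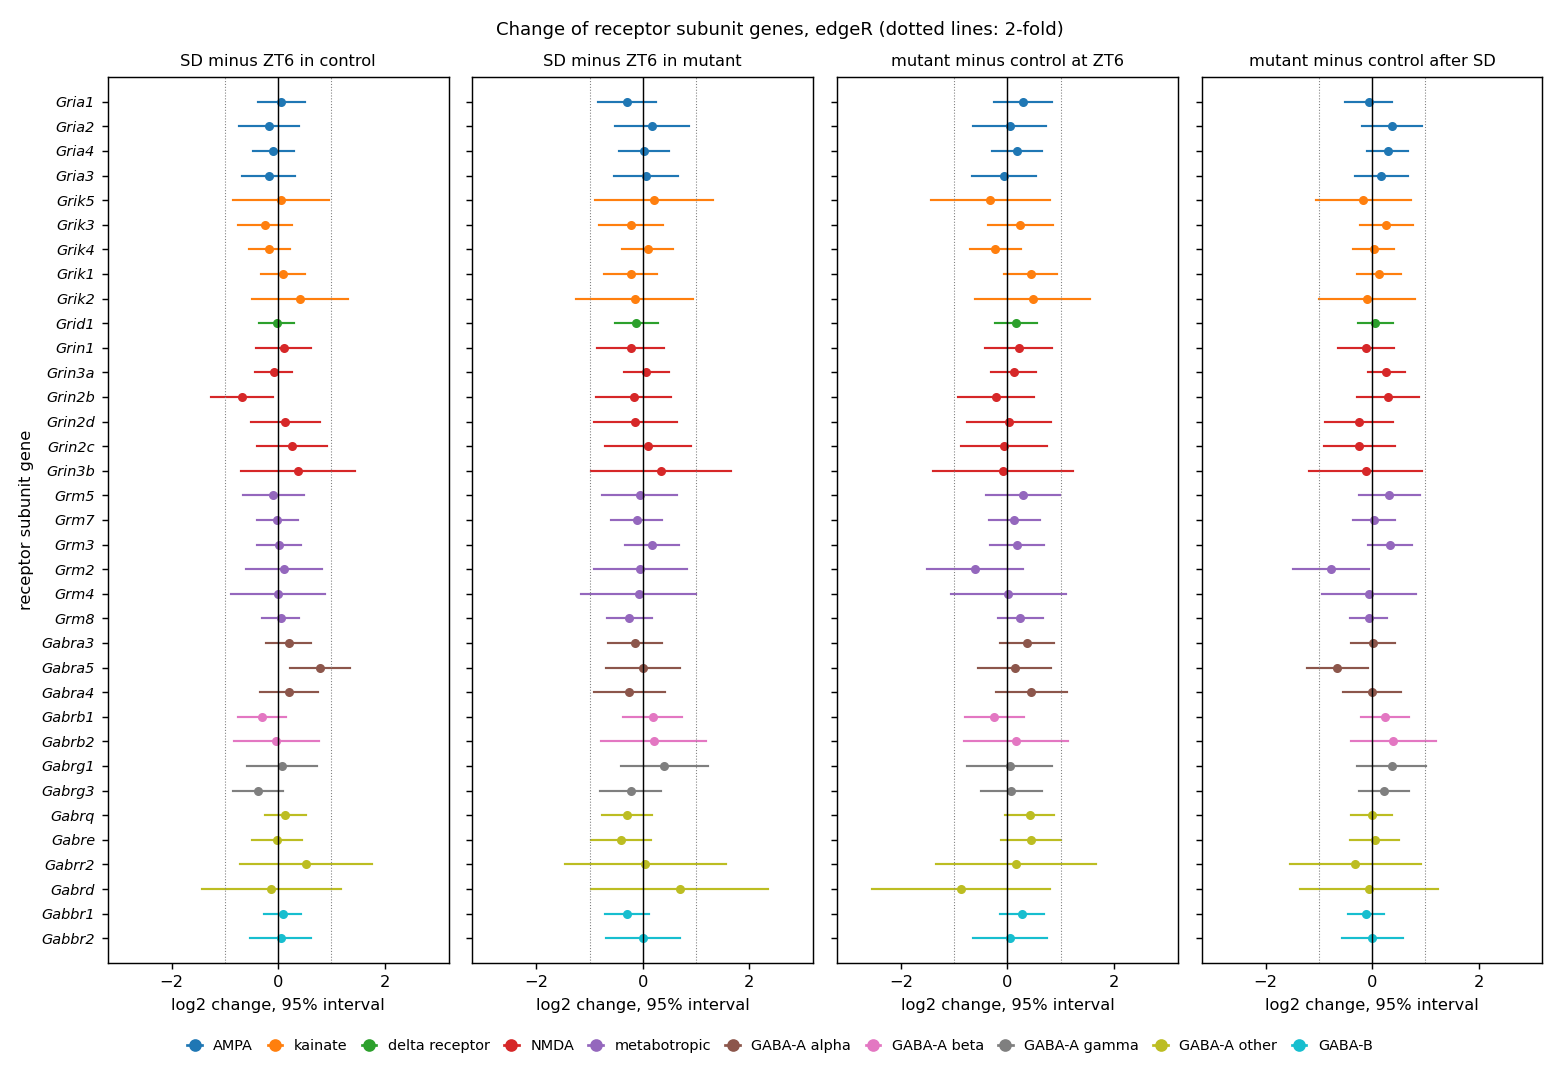
Log2 change with its 95% interval for 35 receptor subunit genes in 4 comparisons, without the low-count genes Gabra2, Grin2a and Gabrr1. Dotted lines mark a 2-fold change. None of them passed the adjusted threshold in any of them, and Gabra5 after SD in control mice stands at 0.78.

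Receptors work with partner proteins, and 60 genes of 9 such lists were read in the same fits: AMPA and kainate auxiliary subunits, excitatory and inhibitory scaffolds, pentraxins, GABA-B auxiliary subunits, and the enzymes and transporters of glutamate and GABA. edgeR called 0 of the 60 in each of the 8 comparisons, and so did DESeq2. At an unadjusted p under 0.05 stood 0 to 2 of the 60 in a comparison, against 2.16% to 6.17% of all genes. The highest count, 2 of 60, came in mutant against control mice, after SD (2.96% of all genes) and over both states (3.6% of all genes). Those named next were chosen after their values were seen, as the ones under that p. Shisa8, of a family of synaptic membrane proteins, was at 1.41 ± 0.44 at ZT6 against ZT0 (adjusted p = 0.960 from edgeR), on levels of at most 1.71 CPM in those libraries. Glul, which makes glutamine in astrocytes, was at 0.69 ± 0.22 after SD in control mice (adjusted p = 0.699 from edgeR). After SD the pentraxin gene Nptx2, whose product clusters AMPA receptors, was at -0.59 ± 0.22 in mutant against control mice, and the AMPA auxiliary gene Cnih2 at -0.62 ± 0.23, both with an adjusted p of 0.999 from edgeR. Slc6a13, a GABA transporter gene typical of meninges, was at -1.35 ± 0.57 in mutant against control mice over both states (adjusted p = 0.942 from edgeR).

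The sample titles carry index numbers, which run from 1 to 18 and from 43 to 46. What the gap stands for is not given in the sources used here. The 4 libraries numbered 43 to 46 are 1 each of control ZT6, control SD, mutant ZT6 and mutant SD, which is 1 of 2 mutant ZT6 libraries but 1 of 4 in each of the other 3 groups. A gene that differs by run can therefore move the mutant ZT6 mean more than the others. A comparison of these 4 with the other 13 within groups, added after the data were seen, called 5 of 43 members (11.6%) against 14.1% of all genes by edgeR. Within the runs of index numbers (1 to 4, 5 to 18 and 43 to 46) that hold both groups, SD against ZT6 was higher in every run for 1 and lower for 9 of 43 members in control mice (15.1% and 16.3% of all genes), and for 5 and 13 in mutant mice (22.8% and 29.7% of all genes). Mutant against control was higher in every run for 21 and lower for 2 members at ZT6 (26.7% and 21.9% of all genes), from 2 runs with 1 mutant library each. After SD it was higher for 8 and lower for 2 (16.6% and 20.5% of all genes).

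Gria1, the leading AMPA gene, rose in the libraries numbered 43 to 46, at 605 to 723 CPM against 391 to 517.5 in the other 13, with no overlap (log2 change 0.53 ± 0.10, adjusted p = 0.00376 from edgeR). Grik2, a kainate subunit gene, rose from 9.38 to 27.3 CPM in the 13 to 35.5 to 42.7, again with no overlap (1.06 ± 0.23, adjusted p = 0.00714 from edgeR). How many of all genes also had no overlap in this split was not counted, so the lack of overlap is not set apart from other genes. Grik3 rose by 0.51 ± 0.15 (adjusted p = 0.0363) and Gabra5 by 0.56 ± 0.17 (adjusted p = 0.0446), both by edgeR and both with overlapping ranges. Gria1 and Grik2 were called in each of 4 fits that left out 1 of these libraries, Grik3 in 1 of them, and Gabra5 in none. Without the 3 libraries high in pituitary genes Grik2 alone was called. That fit also lost a library of the run 43 to 46, as mutant SD replicate 4 has index number 43.

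The libraries numbered 43 to 46 also stood apart in a list of 7 striatal genes, which summed to 352.9 to 439 CPM in them and to 155 to 239 in the other 13. Most of it was Penk, the preproenkephalin gene, at 237.7 to 312 CPM against 71.1 to 134.4. The defining striatal receptor genes Drd1 and Adora2a were at most 6.97 and 1.39 CPM in all 17 libraries. Their part in the values of Gria1 and Grik2 was not tested.

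With 3 runs of index numbers (1 to 4, 5 to 18 and 43 to 46) as terms, 9 of 43 members (20.9%) differed between the first and second run, against 18.3% of all genes, and 15 of 43 (34.9%) between the third and the second, against 22.4%. Grik5 was higher in the first run by 1.35 on the log2 scale, Grm4 by 1.28, Grm2 by 0.94 and Gabbr2 by 0.81. The split between 4 and 5 was taken from an earlier look at these data.

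**Figure D4:**
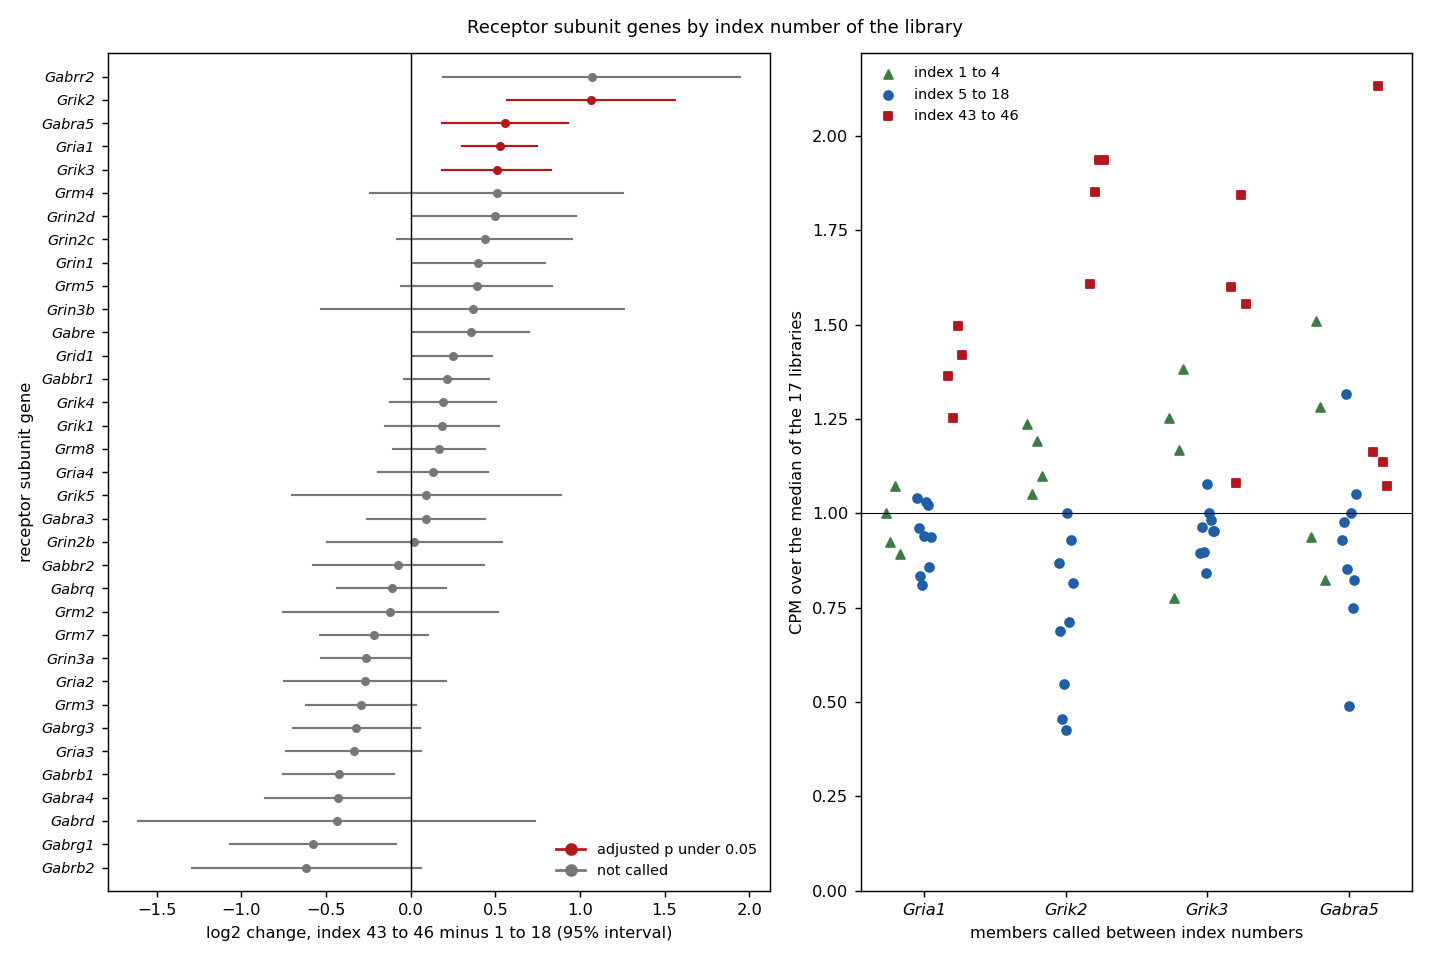
Left, log2 change of 35 receptor subunit genes in the libraries with index numbers 43 to 46 against those with 1 to 18, with 95% intervals and called genes in red. Right, CPM over the median of the 17 libraries for 4 called genes by run of index numbers, each point a library. Gria1 and Grik2 of the run 43 to 46 lie above all other libraries.

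The 4 deep libraries that were left out are the 3 of mutant ZT0 and, from mutant ZT6, replicate 3. A list of 7 meningeal and fibroblast genes gave a sum of 7879 to 23420 CPM there and of 45.6 to 396.9 CPM for the 17, beside the low neuron and hypothalamus lists given above. Receptor subunit genes were lower in them: for 37 of the 43 tested members all 4 lay under the lowest of the 17 libraries (28.5% of all genes), and for 36 the median was under 5% of that of the 17 (18.5% of all genes). The low-count filter used the 17 libraries alone, so members and all genes counted here had to be present in those. The 4 were set apart from the 17 neural libraries in earlier results of these data. Lower receptor RNA in them is therefore a description and no independent result. Gabbr1 was at 28.2 to 42.5 CPM of the library total against 578 to 893, and Gria1 at 0.321 to 1.46 against 340.9 to 670.4. Gabra5 was at 0 in all 4, which allows up to 0.0933 to 0.961 CPM.

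Gria3, the AMPA subunit gene on the X chromosome (chrX:41400854-41678601), did not follow the other members. It was at 89.3, 132.0, 140.7 and 173.6 CPM in these 4, in that order, and at 42.9 to 132.8 CPM with a median of 77.2 in the 17. All 4 thus lay above that median, the 1 member of 43 for which this held, while 19.3% of all genes did so. Of the 4, 2 lay above every one of the 17, and 19.6% of all genes had at least 2 there. Gria1, of the same family, was at 1.46 CPM or less in each of these 4 libraries. Gabre (1.87 to 16.7 CPM), Grik5 (2.58 to 12.5) and Grin2d (1.40 to 8.97) were the members next most retained, at medians of 22.01%, 13.3% and 14.8% of those of the 17, apart from the low-count genes.

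**Figure D5:**
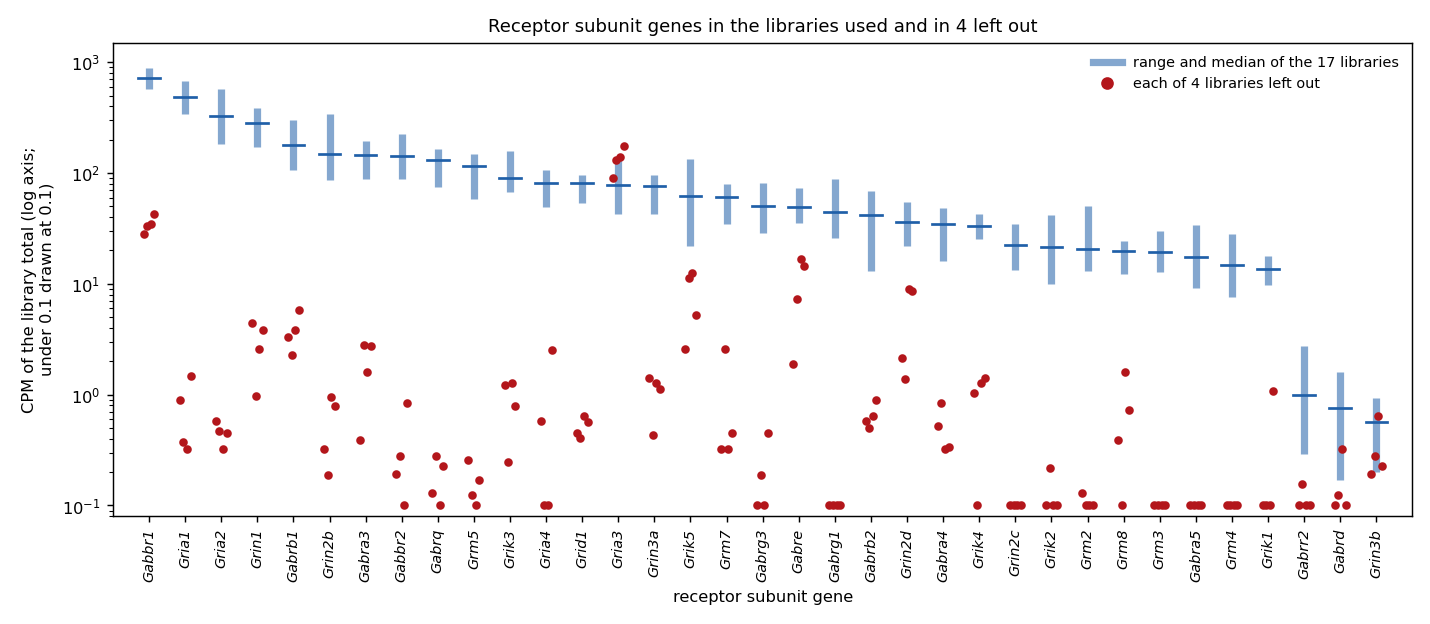
CPM of the library total for 35 receptor subunit genes on a log axis, as the range and median of the 17 libraries and each of the 4 deep libraries left out. Values under 0.1 are drawn at 0.1. Gria3 is the member whose 4 left-out libraries, at 89.3 to 173.6 CPM, all lie above the median of the 17.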

How the data were processed

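Per the labels' protocols, Trizol-extracted RNA went into TruSeq polyA libraries for a NovaSeq run, Trimmomatic 0.38 trimmed the reads, kallisto 0.44.0 estimated transcript abundance against an index of Ensembl 79, and tximport brought transcripts to genes. The authors deposited estimated counts (expected counts), whole numbers that are not normalised. Of 41461 gene lines, 5 that repeat 4 gene IDs were dropped. Coordinates and exon lengths come from GENCODE M21 (GRCm38), which holds all 47 members.

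One quasi-likelihood model (edgeR 4.0.16 in R 4.3.3, two-sided F tests) covered 17 libraries in 5 groups. TMM set the scaling, and a low-count filter by group (minimum count 10, minimum total 15) left 21346 genes. A gene was called when its Benjamini-Hochberg adjusted p was under 0.05. Each SE is the size of the log2 change divided by the root of the F value. Alternatives were DESeq2 1.42.0, RLE factors, a 2-fold limit, no filter, runs of index numbers as covariates, all 22 libraries, leaving out the 3 libraries high in pituitary genes, and leaving out each library in turn. The fits were tested on simulated data with a smaller spread than the one fitted to these libraries. That test therefore does not show how small a change could be found here. Depth was 14609454 to 46965594 counts a library.

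The members, the gene lists and the tests were chosen with earlier results of these data known, and the index runs and the 5 libraries to leave out come from those results. Named genes are, in each comparison, the called members or the 3 of smallest p, the highest and lowest of each family by level, and members on chromosome 7 near the imprinted region. Some members enter the counts but are not reported by name here. For the partner lists the rule names called genes, of which there were none.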

Additional observations from a re-analysis of the deposited data

Results flagged for a closer look

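In 4 groups of 4 libraries a single library stood apart from the other 3 by more than Dixon's 95% limit, among 77 groups of the 29 named members. Chance gives about 1 such group in 20. Gria1 was at 685.5 CPM in mutant SD replicate 4, above 414.5 to 452 in the other 3, and this library has an index number from 43 to 46. Gria3 was at 47.06 CPM in control SD replicate 4, of the same run, under 75.5 to 80.1 in the others. Grin2b was at 116.8 CPM in mutant SD replicate 1, the library with 23340 CPM of the pituitary list, under 149.7 to 155 in the others. Grin2a was at 0.1513 CPM in control SD replicate 4, which is 3 counts, against 0 in the others.

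Outside the libraries compared, Gria3 was at 140.7 CPM in mutant ZT0 replicate 3 and at 173.6 CPM in mutant ZT6 replicate 3, above the highest of the 17 libraries (132.8). Both left-out libraries have low neuron and high meningeal and fibroblast lists. The part of these lists in the value of Gria3 was not tested.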

How the results depend on the processing

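No alternative called a receptor subunit gene: 0 members in each of 141 combinations of comparison and setting. Counts over all genes moved. edgeR gave 0, or 1 for SD averaged over genotypes. DESeq2 gave 18 for SD in control mice, 17 for SD in mutant mice, 37 for their mean, 23 for ZT6 against ZT0, 15, 1 and 5 for genotype at ZT6, after SD and averaged, and 8 for the interaction. Without the low-count filter 1 gene (SD, control) and 2 (SD, mean) were called, and with 3 index runs as covariates 4 (SD, mean) and 3 (genotype, SD). All 22 libraries gave 173 (SD, mutant) and 0 (SD, mean). RLE factors and the 2-fold limit each gave 0 (SD, mean). Without the 3 libraries high in pituitary genes 2 (SD, control), 1 (genotype, ZT6) and 1 (interaction) were called. Leaving out 1 library gave 0 to 1 for SD in control mice, 0 to 3 in mutant mice, 0 to 3 for their mean, 0 to 1 for ZT6 against ZT0, 0 to 2, 0 and 0 to 2 for genotype, and 0 to 2 for the interaction. For index numbers 43 to 46 the members called went from 5 to 8 with DESeq2, 1 without the pituitary-rich libraries, and 2 to 3 without 1 library. With 3 runs as terms, where 43 to 46 were set against 5 to 18 alone, 15 were called.

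Of 414 values over 24 gene and comparison pairs, 409 kept their direction and 5 reversed, all with all 22 libraries: Gabrq (-0.29) and Grik1 (-0.088) for genotype at ZT6, Gabbr1 for SD in mutant mice (0.56), and Gabbr1 (0.46) and Gabrq (0.31) for the interaction. That setting adds libraries low in neuron genes. The cause of the other changes was not tested.

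No paired analysis was possible because the labels give no replicate numbers, and those used here only name libraries in accession order. Genes near 0 counts (Grin2a, Gabra2, Gabrr1) have too few counts for a fold change, and mutant ZT6 rests on 2 libraries.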
